A study of Mus musculus with 8 samples.

Results

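The genes described here are 10 immediate early and stress genes, chosen by symbol: Fos, Fosb, Jun, Junb and Atf3, which code for subunits of the dimeric transcription factor AP-1 and its relatives, Egr1, Nr4a1 and Klf4, which code for other transcription factors, Ier2, a nuclear protein, and Dusp1, a phosphatase that switches off MAP kinases. All 10 were measured, out of 12393 genes on the array with a single named gene per probe set, and each was represented by its probe set of highest mean over the 8 arrays. Immediate early genes are switched on within minutes of a stimulus, from promoters that already hold their activators, and need no new protein. Growth factor signals that run through the RAF, MEK and ERK kinases are among the classic triggers, as are membrane depolarisation, heat, wounding and lack of oxygen. In skeletal muscle the same genes respond to contraction and injury, and they also respond to the handling of tissue before RNA is fixed.

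The arrays held total RNA of 6 soft tissue sarcomas and of 2 normal muscles, which came from hind limbs free of tumour. Every mouse carried p53 alleles flanked by Cre sites (p53 Fl/Fl) and a conditional Braf allele, either on both chromosomes (Braf Ca/Ca; 4 sarcomas, numbered 1, 2, 3 and 5, and 1 muscle) or on 1 of them (Braf Ca/+; 2 sarcomas, numbered 1 and 2, and 1 muscle). Braf codes for a RAF kinase. Cre was delivered by injection of an adenovirus, and the labels name no promoter that would set the cell type in which the alleles recombined. No group lacked the conditional alleles. The sources used here do not give strain, age, sex or the time from dissection to lysis. The design asks how tumours differ from normal muscle, and the titles allow a second comparison by Braf genotype. Values are log2 expression per probe set as the authors deposited them, so a difference of 1 is a 2-fold difference, and levels of different genes are not set against each other.

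The muscles carried the markers of muscle fibres. The mean log2 level of 8 muscle fibre genes was 13.32 and 13.42 in the muscles and ran from 7.28 to 9.81 in the sarcomas, and 8 of 8 fell. All 4 measured adipocyte genes and 5 of 7 endothelial genes fell too, with list means of 9.88 to 11.63 against 5.26 to 7.69 and of 7.83 to 7.96 against 5.58 to 6.70. Of 8 macrophage genes 1 rose (list mean 9.13 to 10.42 in muscle, 9.75 to 10.96 in sarcoma), and of 4 genes of dividing cells 3 rose (5.57 to 6.87 against 7.15 to 9.47). Of the 2 muscles, the Ca/Ca muscle had the higher level of the dividing cell list (6.87 against 5.57) and of the macrophage list (10.42 against 9.13). It was also higher in the nerve sheath list (6.79 against 5.71) and the fibroblast list (11.47 against 10.71). The Ca/+ muscle was higher in the B cell list (8.37 against 5.93), the adipocyte list (11.63 against 9.88) and the neutrophil list (6.97 against 6.35). Between sarcoma and muscle, 0 of 4 neutrophil, 0 of 3 T cell and 0 of 3 B cell genes passed, 1 of 7 fibroblast genes fell and 2 of 3 nerve sheath genes fell. In such bulk tissue, fewer cells of a type and less RNA per cell cannot be told apart, and the part of these cell type differences in the results below was not tested.

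The sequences upstream of the genes were compared next, since these genes are known for the elements in their promoters. RefSeq promoters (build GRCm38.p6) were found for 8 of the 10 genes, all but Egr1 and Ier2, and the 250 bases before the start were searched on both strands for 7 motifs. The core of the cyclic AMP response element, TGACG, which is bound by CREB and ATF factors, was present in 7 of 8, against 17.8% of all 32851 promoters in the table and 27.1% of the 9198 promoters whose GC content lay in the range of these 8. The full element TGACGTCA, which contains the core on both strands, was found in 1 of them, Dusp1. Its share was 1.55% of all promoters and 2.78% in that GC range. The EGR motif GCGNGGGCG was found in 3, Fosb, Nr4a1 and Klf4, against 4.70% of all and 9.94% in that GC range. TATAAA was found in Fos alone (12.4% of all and 3.26% in that GC range). The CArG box, the site of serum response factor, the AP-1 site TGANTCA and the NR4A site AAAGGTCA had 0 matches in these windows. This says only that these letters are not in them. Their shares were 1.47%, 6.75% and 1.34% of all promoters, and 1.04%, 3.49% and 0.565% in that GC range. A match is a run of letters and not a measured site. The stretches below are those of the 3 genes that fell in sarcoma and of Jun, the promoter without any of the 7 motifs. They run 5′ to 3′ on the strand of the gene and end at the base before the start, with the matches in capitals.
Nr4a1, chr15:101266596-101266845, plus strand: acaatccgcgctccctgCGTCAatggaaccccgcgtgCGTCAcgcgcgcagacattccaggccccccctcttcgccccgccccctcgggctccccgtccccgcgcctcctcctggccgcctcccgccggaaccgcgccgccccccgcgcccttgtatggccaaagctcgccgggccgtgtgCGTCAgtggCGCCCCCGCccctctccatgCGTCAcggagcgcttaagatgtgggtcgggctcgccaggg
Fos, chr12:85473640-85473889, plus strand: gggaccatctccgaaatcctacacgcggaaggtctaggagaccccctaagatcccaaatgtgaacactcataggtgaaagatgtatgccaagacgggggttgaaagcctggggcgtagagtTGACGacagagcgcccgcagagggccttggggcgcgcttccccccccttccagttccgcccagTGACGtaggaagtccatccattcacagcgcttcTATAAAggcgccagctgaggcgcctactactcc
Klf4, chr4:55532476-55532725, minus strand: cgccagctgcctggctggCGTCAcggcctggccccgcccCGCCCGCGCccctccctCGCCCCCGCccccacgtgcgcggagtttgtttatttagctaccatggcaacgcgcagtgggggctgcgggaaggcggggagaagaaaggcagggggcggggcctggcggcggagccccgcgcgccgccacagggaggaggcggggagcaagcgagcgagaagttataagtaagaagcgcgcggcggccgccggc
Jun, chr4:95052223-95052472, minus strand: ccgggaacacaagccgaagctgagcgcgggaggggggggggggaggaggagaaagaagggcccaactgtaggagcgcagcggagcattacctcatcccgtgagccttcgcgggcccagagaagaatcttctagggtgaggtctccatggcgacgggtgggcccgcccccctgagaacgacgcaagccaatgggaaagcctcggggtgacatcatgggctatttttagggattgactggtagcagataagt
The Nr4a1 stretch holds the core 4 times, at 233, 213, 69 and 40 bases before the start, and an EGR match at 60 to 52. In Fos the core lies at 129 to 125 and at 66 to 62 bases before the start, and TATAAA at 33 to 28.

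In tumours, 3 of the 10 genes fell against muscle, Nr4a1, Fos and Klf4, and 0 rose. Over all genes tested 26.3% passed, 13.2% lower (1630 of 12393) and 13.1% higher in sarcoma. The estimates of all 10 genes lay below 0, with a median of -0.88, while the median over all genes was 0.03 and 47.7% of genes lay below 0. Under centring on the hybridization controls, which moves the median of all genes by 0.24, 7 of the 10 lay below 0. In 5 genes, Nr4a1, Fos, Klf4, Atf3 and Dusp1, all 6 sarcomas lay below both muscles, as did 19.0% of all genes.

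**Figure D1:**
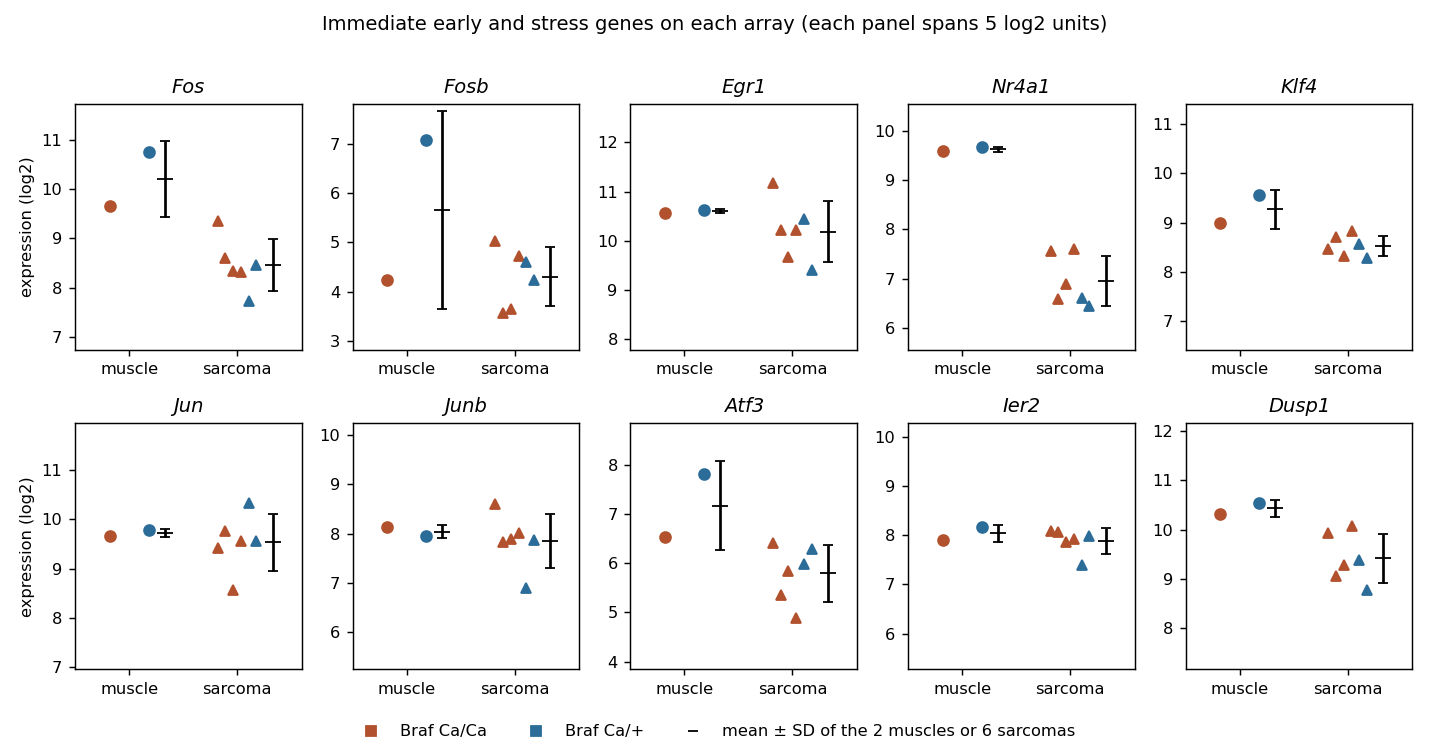
Each panel plots the log2 expression of 1 gene on the 8 arrays, with muscles as circles, sarcomas as triangles, colour for the Braf genotype, and mean ± SD of the 2 muscles or 6 sarcomas in black. Nr4a1 shows the widest gap between the groups, while Jun, Junb, Ier2 and Egr1 overlap.

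Nr4a1, which codes for an orphan nuclear receptor (NUR77) that is induced by contraction in muscle, differed most. Its level was 9.59 in muscle of the Ca/Ca genotype and 9.67 in that of the Ca/+ genotype. Among the Ca/Ca sarcomas it was 7.56, 6.58, 6.90 and 7.60 in tumours 1, 2, 3 and 5, and among the Ca/+ sarcomas 6.61 and 6.45 in tumours 1 and 2. The muscles lay close together, and the highest sarcoma lay 1.99 below the lower muscle. The mean was 6.95 ± 0.51 (SD, n = 6) in sarcoma and 9.63 ± 0.05 (SD, n = 2) in muscle. Nr4a1 thus fell by 2.68 (SE 0.34, limma adjusted p = 0.000998), which is 6.41-fold. The difference was -2.64 (adjusted p = 0.0161) without the Ca/+ muscle, and it passed under 20 of 21 alternatives, missing with the Ca/Ca arrays alone (-2.43, adjusted p = 0.0543).

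Fos codes for the inducible partner of the Jun proteins. It stood at 9.65 in muscle of the Ca/Ca genotype and 10.76 in that of the Ca/+ genotype. In the Ca/Ca sarcomas it was 9.35, 8.60, 8.34 and 8.33 in tumours 1, 2, 3 and 5, and in the Ca/+ sarcomas 7.72 and 8.45. The groups did not overlap, yet the muscles differed by 1.10 and sarcoma 1 of the Ca/Ca genotype came within 0.31 of the lower muscle. Fos fell by 1.74 (SE 0.41, limma adjusted p = 0.0157), from 10.21 ± 0.78 (SD, n = 2) to 8.46 ± 0.53 (SD, n = 6), or 3.35-fold. Without the Ca/+ muscle the difference was -1.19 and did not pass (adjusted p = 0.186), and without the Ca/Ca muscle it was -2.29 (adjusted p = 0.0177). With the Ca/Ca arrays alone it was also short of the threshold (adjusted p = 0.278), and Fos passed under 19 of 21 alternatives.

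Klf4, a zinc finger transcription factor linked to growth arrest and to pluripotency, showed the smallest of the 3 falls. Its muscle levels were 8.99 (Ca/Ca) and 9.55 (Ca/+). The Ca/Ca sarcomas had 8.46, 8.70, 8.32 and 8.82 in tumours 1, 2, 3 and 5, and the Ca/+ sarcomas 8.57 and 8.28. All sarcomas were lower, by as little as 0.17 between the nearest pair. Klf4 fell by 0.74 (SE 0.20, limma adjusted p = 0.0269). A second Klf4 probe set gave -0.71. It no longer passed with the Ca/+ muscle left out (-0.46, adjusted p = 0.286), without Ca/Ca sarcoma 1 (-0.73, adjusted p = 0.051) and under centring on the hybridization controls (-0.51, adjusted p = 0.333), nor with the arrays of either genotype alone (-0.41, adjusted p = 0.432 for Ca/Ca and -1.13, adjusted p = 0.0778 for Ca/+).

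Atf3 and Dusp1 missed the threshold although their groups did not overlap. Atf3, a stress-induced bZIP factor that often represses its targets, read 6.53 in muscle of the Ca/Ca genotype and 7.81 in that of the Ca/+ genotype. Its sarcoma levels were 6.41, 5.36, 5.84 and 4.89 in Ca/Ca tumours 1, 2, 3 and 5 and 5.99 and 6.30 in Ca/+ tumours 1 and 2. The highest sarcoma came within 0.12 of the lower muscle, and the difference was -1.37 (SE 0.46, limma adjusted p = 0.0585). Left with the Ca/Ca muscle alone it was -0.73 (adjusted p = 0.472), and with the Ca/+ muscle alone -2.01 (adjusted p = 0.0387). Dusp1 read 10.31 in muscle of the Ca/Ca genotype and 10.55 in that of the Ca/+ genotype. It was 9.93, 9.06, 9.28 and 10.08 in Ca/Ca tumours 1, 2, 3 and 5 and 9.38 and 8.78 in the Ca/+ tumours. The muscles were 0.24 apart and the sarcomas spread over 1.30, and the difference was -1.01 (SE 0.33, limma adjusted p = 0.0561). It passed under 8 of 21 alternatives, among them without Ca/Ca sarcoma 5 (-1.15, adjusted p = 0.0208) and without Ca/Ca sarcoma 1 (-1.12, adjusted p = 0.0444).

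Fosb, a close relative of Fos, differed mainly between the muscles. It read 4.24 in muscle of the Ca/Ca genotype and 7.08 in that of the Ca/+ genotype, while Ca/Ca sarcomas 1, 2, 3 and 5 had 5.03, 3.56, 3.64 and 4.73 and Ca/+ sarcomas 1 and 2 had 4.61 and 4.24. The Ca/Ca muscle lay inside the sarcoma range and the Ca/+ muscle above it. Fosb was a dim probe set in tumours and in the Ca/Ca muscle. It lay at the 16.4th to 32.8th percentile of all genes on each sarcoma array and at the 23.3rd on the Ca/Ca muscle array. The Ca/+ muscle array had it at the 62.3rd. The difference of -1.36 (SE 0.69) did not pass (limma adjusted p = 0.19), and it was 0.06 without the Ca/+ muscle and, without the Ca/Ca muscle, -2.78 (adjusted p = 0.0136).

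Egr1, Jun, Junb and Ier2 did not differ beyond their spread. Egr1, a zinc finger factor and a standard readout of ERK output, had 10.57 and 10.63 in the muscles. Its sarcoma levels were 11.16, 10.21, 9.67 and 10.22 in Ca/Ca tumours 1, 2, 3 and 5 and 10.45 and 9.41 in the Ca/+ tumours. Of the sarcomas 1 thus lay above both muscles and 5 below, with a difference of -0.41 (SE 0.40, limma adjusted p = 0.502) and a 95% interval from -1.33 to 0.51. Jun, the main partner of Fos, had 9.66 and 9.78 in the muscles. The Ca/Ca sarcomas had 9.42, 9.76, 8.57 and 9.56 in the same order and the Ca/+ sarcomas 10.34 and 9.56. Tumours lay on both sides of the muscles, with a difference of -0.19 and a 95% interval from -1.05 to 0.67. A second Jun probe set gave 0.04. Junb, which can oppose Jun, had 8.14 and 7.94 in the muscles, 8.60, 7.84, 7.88 and 8.02 in the Ca/Ca sarcomas and 6.89 and 7.87 in the Ca/+ sarcomas. It was high in Ca/Ca tumour 1 and low in Ca/+ tumour 1 (-0.19, 95% interval -1.03 to 0.64). Ier2 had 7.91 and 8.17 in the muscles, 8.10, 8.06, 7.86 and 7.93 in the Ca/Ca sarcomas and 7.39 and 7.99 in the Ca/+ sarcomas. All but Ca/+ tumour 1 lay near the muscles (-0.15, 95% interval -0.60 to 0.30). Under centring on the hybridization controls the signs of Jun, Junb and Ier2 turned (each at most 0.09). The intervals of Egr1, Jun and Junb reach past -1, so the data do not show that their levels were alike.

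**Figure D2:**
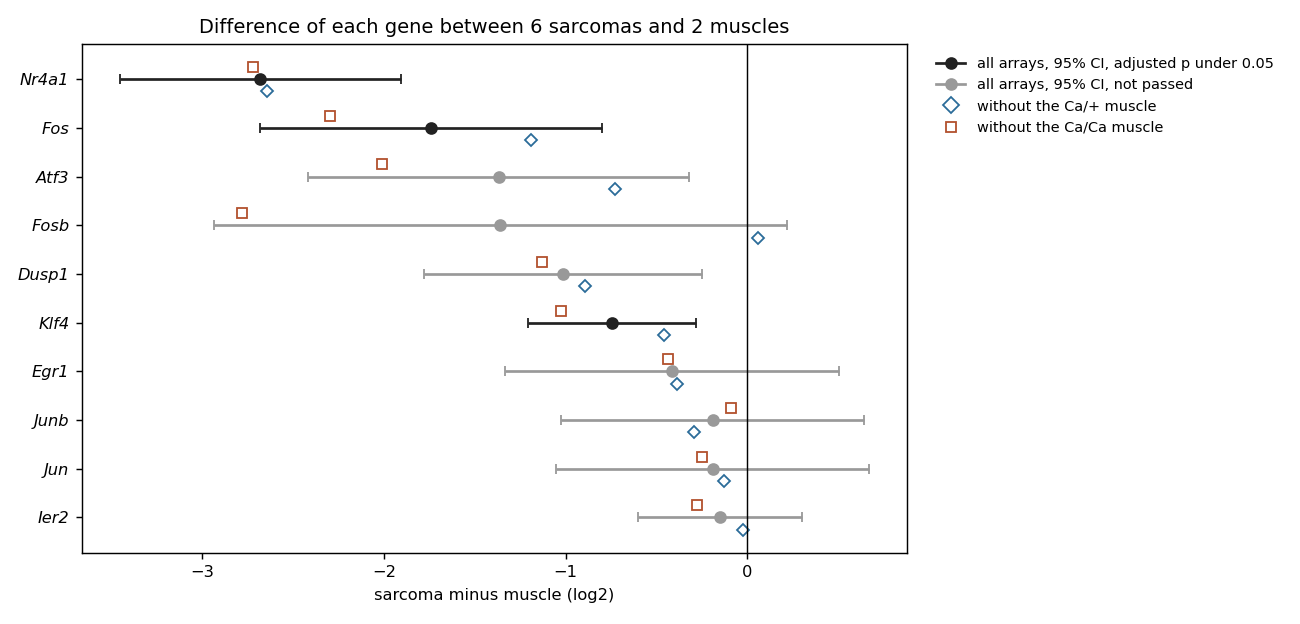
The difference between 6 sarcomas and 2 muscles is plotted on the log2 scale for each gene with its 95% interval, in black where the adjusted p is under 0.05 and in grey otherwise, and open symbols give the difference with 1 muscle left out. The 2 open symbols nearly coincide for Nr4a1 (-2.72 and -2.64) and lie far apart for Fosb (-2.78 and 0.06), Atf3 (-2.01 and -0.73) and Fos (-2.29 and -1.19).

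The 2 muscles lay apart in some of the genes. Each genotype had 1 muscle, and this difference was not tested by itself. The Ca/+ muscle was above the Ca/Ca muscle by 2.84 in Fosb, 1.28 in Atf3, 1.10 in Fos and 0.57 in Klf4. These gaps compare with a median absolute gap of 0.22 over all genes, and the gap was no larger than that of Fosb in 99.5% of them. In Nr4a1, Egr1, Jun, Junb, Ier2 and Dusp1 the muscles differed by at most 0.25. In all, 9 of 10 genes were higher in the Ca/+ muscle, Junb being the exception, against 51% of all genes.

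AP-1 is a family of dimers, so its other subunits were set beside the members. Fosl1 (FRA-1), a Fos relative whose protein is stabilised by ERK and which is known for its role in invasive tumours, lay on the other side of 0. It read 6.84 in muscle of the Ca/Ca genotype and 5.19 in that of the Ca/+ genotype. Its levels were 8.72, 8.66, 8.14 and 8.66 in Ca/Ca sarcomas 1, 2, 3 and 5 and 9.73 and 8.93 in Ca/+ sarcomas 1 and 2. All sarcomas were above both muscles, and the sarcoma with the most Fosl1, Ca/+ tumour 1, had the least Fos (7.72) of the 6. The 6 did not run in opposite order, since Ca/Ca sarcoma 3, with the least Fosl1, had 8.34 in Fos, below Ca/Ca sarcoma 1 (9.35). Fosl1 rose by 2.79 (SE 0.48, limma adjusted p = 0.00396) and passed under 21 of 21 alternatives, at 1.97 (adjusted p = 0.0473) without the Ca/+ muscle. Jdp2, a bZIP protein that dimerises with Jun and represses AP-1 sites, rose by 1.08 (SE 0.13, limma adjusted p = 0.000813), from 7.60 ± 0.15 (SD, n = 2) to 8.68 ± 0.11 (SD, n = 6), and by 0.97 (adjusted p = 0.0158) without the Ca/+ muscle. With the mean of its probe sets the difference of Jdp2 was 0.50 (adjusted p = 0.0156), and with the arrays of 1 genotype alone it did not pass (1.01, adjusted p = 0.0529 for Ca/Ca and 1.11, adjusted p = 0.0643 for Ca/+). The other 4 of the 6 listed AP-1 genes did not pass, with Batf3 at -0.58 and Batf at 0.40. The median of the 6 was 0.30, against 0.03 over all genes, of which 13.1% rose. Within the Fos family the estimates thus ran from -1.74 for Fos to 2.79 for Fosl1, whereas those of Jun, Junb and Jund (-0.18, named after its value was seen) all lay near -0.19.

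**Figure D3:**
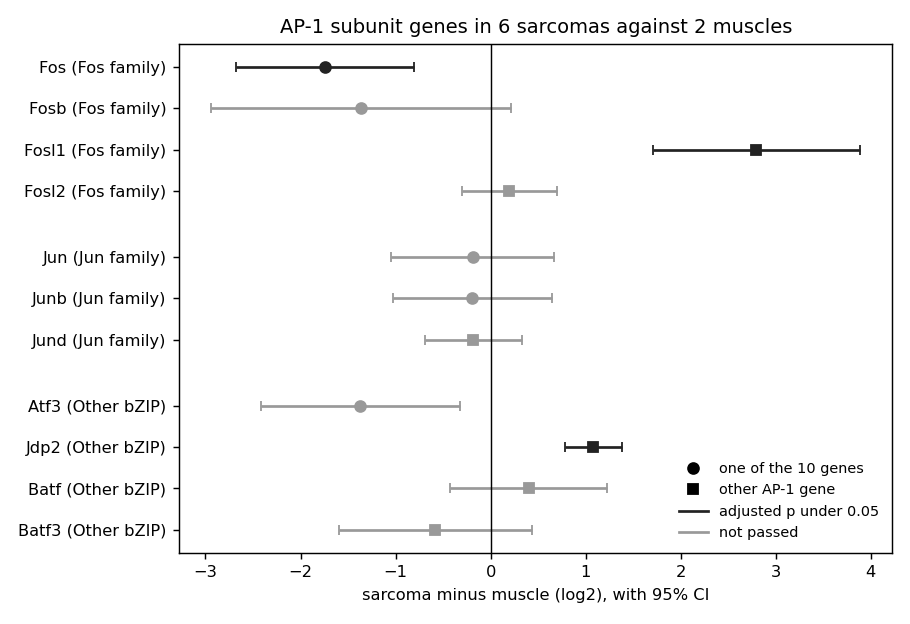
The sarcoma minus muscle difference (log2, with its 95% interval) is plotted for 11 AP-1 subunit genes grouped by family, circles for the genes chosen by symbol and squares for the others. Fos and Fosl1 lie on opposite sides of 0, at -1.74 and 2.79, and the 3 Jun genes sit near 0.

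Paralogs of Egr1, Nr4a1 and Klf4 were also measured. Of 8 EGR, NR4A and KLF relatives 1 fell, 0 rose and 7 did not pass, with a median of -0.08, and the 12.5% called lower is near the 13.2% of all genes. Klf2, a transcription factor of endothelium and lymphocytes, fell by 1.74 (SE 0.41, limma adjusted p = 0.0161), and it did not pass when either muscle was left out (-1.51, adjusted p = 0.153 without the Ca/+ muscle, and -1.98, adjusted p = 0.0504 without the Ca/Ca muscle). Markers of endothelium fell beside it, as given above, and their part was not tested. Nr4a2 (0.74), Egr2 (-0.41) and Nr4a3 (-0.11) came next by adjusted p and did not pass. Whether Nr4a1 differed from the other NR4A receptors was not tested.

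Of 25 further immediate early genes measured, 3 rose, 2 fell and 20 did not pass, with a median of 0.20. The called shares, 12% higher and 8% lower, were no larger than those over all genes (13.1% and 13.2%). Ccn2, a secreted matricellular protein (CTGF), rose by 1.75 (adjusted p = 0.00841), Plk3, a stress-responsive kinase, by 1.39 (adjusted p = 0.0149), and Myc, the growth-promoting transcription factor, by 1.24 (adjusted p = 0.0211, named after its value was seen). Gadd45g, a stress protein, fell by 2.06 (adjusted p = 0.0131) and Btg2, an antiproliferative gene, fell by 1.34 (adjusted p = 0.0209). These are limma values, and all 5 calls were lost without the Ca/+ muscle, at adjusted p from 0.109 for Ccn2 to 0.223 for Btg2. The difference of Plk3 was then still 1.39, while those of the other 4 were closer to 0, at 1.19 for Ccn2, 0.93 for Myc, -1.30 for Gadd45g and -0.95 for Btg2. Plk3 also missed without the Ca/Ca muscle (adjusted p = 0.0759), and Myc under ribosomal protein centring (adjusted p = 0.0847).

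Of 12 measured regulators of immediate early promoters, 0 rose and 2 fell, Mapk14, the p38 stress kinase (-0.58, limma adjusted p = 0.0177), and Rps6ka3, the ERK-activated kinase RSK2 (-0.51, adjusted p = 0.0403), with a median of -0.02. The 16.7% called lower is near the 13.2% of all genes. With the mean of all probe sets of each gene these became -0.19 (adjusted p = 0.243) and 0.03 (adjusted p = 0.926), so the probe sets of both genes disagreed. Both calls were also lost when either muscle was left out and under centring on the hybridization controls, and that of Rps6ka3 without any of 5 sarcomas (all but Ca/Ca sarcoma 5). Mapk9, the stress kinase JNK2 (0.65, adjusted p = 0.0535), and Elk3, an ETS factor that partners serum response factor (0.72, adjusted p = 0.0792), did not pass. All 6 sarcomas lay above both muscles in Mapk9.

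Of 12 chaperones and other genes of the heat shock response, 3 rose, 2 fell and 7 did not pass, with a median of 0.40. The shares were 25% higher, against 13.1% of all genes, and 16.7% lower, near the 13.2% of all genes. Hsp90aa1, the inducible HSP90, rose by 1.68 (adjusted p = 0.000133) and Dnaja1, an HSP70 co-chaperone, by 1.01 (adjusted p = 0.00113), and both passed without the Ca/+ muscle. Hspa8, the constitutive HSP70, rose by 0.64 (adjusted p = 0.0108), and did not pass without the Ca/+ muscle (0.46, adjusted p = 0.139) or when arrays were centred on ribosomal protein or housekeeping genes or fitted by cyclic loess (adjusted p from 0.0599 to 0.164). Of the small heat shock genes, Hspb8 fell by 1.97 (adjusted p = 0.00202) and Hspb1, named after its value was seen, fell by 1.80 (adjusted p = 0.0284). Hspb1 missed without the Ca/+ muscle (-1.14, adjusted p = 0.294). It missed also without Ca/Ca sarcoma 2 (adjusted p = 0.0501) and under hybridization control centring (adjusted p = 0.057). Both are abundant in muscle fibres, whose markers fell as given above, and their part was not tested. Of 10 other stress genes Ddit3 (CHOP), a factor of the endoplasmic reticulum stress response, rose by 1.10 (adjusted p = 0.0103) and Txnip, an inhibitor of thioredoxin, fell by 2.14 (adjusted p = 0.00193), and 8 did not pass, with a median of -0.03. Each direction thus held 10% of the list, below the share of all genes. Ddit3 did not pass when either muscle was left out (adjusted p = 0.0886 for the Ca/+ muscle and 0.0551 for the Ca/Ca muscle).

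Between Ca/Ca and Ca/+ sarcomas none of the 10 genes passed, and neither did any other gene, with 0% of 12393 called by limma. At an unadjusted p under 0.05 there were 971 genes and 0 of the 10. The largest differences were those of Junb (0.71, 95% interval -0.12 to 1.53), Nr4a1 (0.64, -0.15 to 1.42), Jun (-0.62, -1.55 to 0.31) and Fos (0.57, -0.30 to 1.43), each at an adjusted p from 0.665 to 0.709. The Ca/Ca estimate was higher in 7 of 10 genes, against 49.9% of all genes, and lower in Fosb, Jun and Atf3. The median was 0.34, against -0.0005 over all genes. In 0 of 10 genes did the 4 Ca/Ca sarcomas lie wholly to one side of the 2 Ca/+ sarcomas, as they did in 21.0% of all genes. With 2 tumours in the smaller group the intervals reach more than 1 log2 unit from 0 in 8 of these genes, so the comparison bounds the differences rather than showing the genotypes alike.

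The sarcoma minus muscle estimate was lower in Ca/+ than in Ca/Ca mice for 9 of 10 genes, Jun being the exception. Over all genes the share was 50.7%, and 0 of the 10 passed the test of that difference. For Fosb the mean of the sarcomas minus the muscle of the same genotype was -0.0034 in Ca/Ca mice and -2.66 in Ca/+ mice. For Fos the same values were -1.0015 and -2.67, and for Nr4a1 they were -2.43 and -3.14. The interaction was 2.65 (SE 0.90, limma adjusted p = 0.601) for Fosb and 1.67 (SE 0.68, adjusted p = 0.686) for Fos, and 0.00807% of all genes passed, which is 1 of 12393. That gene was Eif2s3y, a gene of the Y chromosome, named after its value was seen (5.52, adjusted p = 0.00687). At an unadjusted p under 0.05 there were 895 genes and 2 of the 10, Fosb and Fos. The test takes its spread from the sarcomas alone, since each genotype has 1 muscle, and the muscle gaps given above enter it in full. The sources used here do not give sex, although the gene that passed lies on the Y chromosome. The part of sex in the interaction, the muscle gaps and the genotype differences was not tested.

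Among the sarcomas the 10 genes varied more than most. Their SD over the 6 tumours was above the median of all genes (0.24) in 9 of 10, from 0.26 for Ier2 to 0.62 for Egr1, and Klf4 was the exception (0.21). The tumours were not high or low in all genes at once. Ca/Ca sarcoma 1 had the highest level in 6 genes (Fos, Fosb, Egr1, Junb, Atf3 and Ier2), and ranked first or second in 8, while over all genes it was the highest sarcoma in 10.9%. It lay above the sarcoma mean by 0.98 in Egr1, 0.88 in Fos, 0.75 in Junb and 0.73 in Fosb, and below it in Klf4 (-0.07) and Jun (-0.12). The Fosb probe set was dim in the sarcomas, at the 16.4th to 32.8th percentile of all genes, which limits its ranks. Ca/Ca sarcoma 5 was the highest in Nr4a1, Klf4 and Dusp1 and the lowest in Atf3 (-0.91). Over all genes it was the highest sarcoma in 23.5% and the lowest in 20.5%. Its macrophage (9.75), T cell (4.12) and B cell (4.21) list means were the lowest of the 6. So were its fibroblast (9.80), adipocyte (5.26) and dividing cell (7.15) list means. Ca/+ sarcoma 1 combined the highest Jun (0.81 above the mean) with the lowest Junb (-0.96), Fos (-0.74) and Ier2 (-0.50). Its shares over all genes were 17.3% highest and 16.5% lowest. It had the lowest muscle fibre (7.28), endothelium (5.58) and neutrophil (5.17) list means of the 6. The part of these cell type differences in the deviations was not tested. Ca/+ sarcoma 2 was the lowest in Egr1, Nr4a1, Klf4 and Dusp1, and over all genes it was the lowest sarcoma in 16.8%. Without Ca/Ca sarcoma 1 the falls of Fos and Nr4a1 from muscle were -1.92 (limma adjusted p = 0.00763) and -2.80 (adjusted p = 0.00126).

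**Figure D4:**
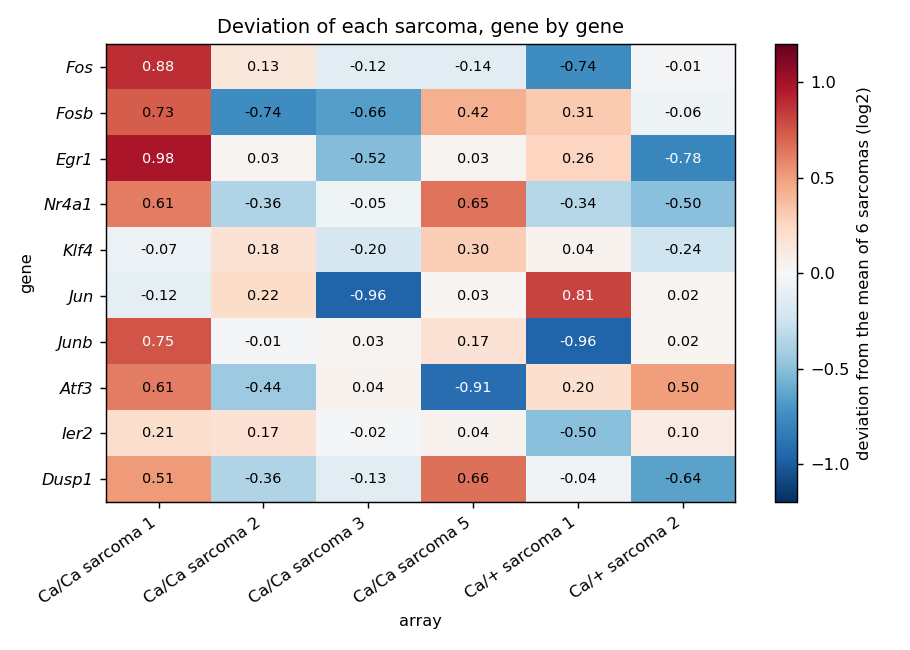
Each cell gives, for 1 gene (row) and 1 sarcoma (column), the deviation in log2 units from the mean of the 6 sarcomas, red above and blue below. Ca/Ca sarcoma 1 is red in 8 of 10 genes, and the Ca/+ sarcoma 1 column goes from 0.81 in Jun to -0.96 in Junb.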

How the data were processed

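Total RNA of 6 sarcomas and 2 muscles was labelled with biotin as cRNA and read on 8 one-colour arrays. The log2 values were deposited by the authors, who used RMA, per the submitters' processing notes, in a version that the sources used here do not state. Column medians ran from 5.79 to 5.90, so the values were used with no further scaling. The number of arrays limits the precision. Of 22690 probe sets, 64 were controls, 20380 named 1 gene, 691 named several and 1555 were unlisted. The probe set of highest mean over the 8 arrays stood for each of 12393 genes. No 2 arrays shared more than 32 equal values.

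Differences were tested with limma 3.58.1 (lmFit, eBayes) in R 4.3.3, adjusted by Benjamini-Hochberg over the 12393 genes, at a threshold of 0.05. All p-values are two-sided. Intervals are 95%. The scripts were tested on simulated data. The labels do not say that sarcomas came from separate mice, so p-values cover only the spread among these arrays, part of which may be technical. The sources used here give no scan dates.

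The 10 genes and all lists were chosen with earlier results of these data known. Of 160 listed genes 143 were matched. All 10 genes are given on every array, and of each other list at most 4 genes of smallest adjusted p are named. For each of the 10 with a range above 2 over the arrays, the 3 other genes with the smallest root mean square difference after centring are named. Tumour numbers 1 and 2 occur in both genotypes and share only a number. Promoter sequences are those of RefSeq, build GRCm38.p6, 250 bases before the start. Alternatives were other normalizations and centrings, filters on dim genes, the mean of probe sets, variance models, array weights, genotype terms and leaving out each array.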

Additional observations from a re-analysis of the deposited data

Results flagged for a closer look

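Among the 6 sarcomas, Ca/+ sarcoma 1 stood apart in Ier2. Its level was 7.39, while the other sarcomas lay between 7.86 and 8.10, and the gap was 0.67 of the range of the group, above Dixon's critical value for 6 samples. Of 20 groups checked in this way 1 was picked out, and chance alone picks out about 1 in 20.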

How the results depend on the processing

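Of the 10 genes, 3 passed between sarcoma and muscle. The count was 5 under housekeeping centring, ribosomal protein centring and without the dimmest 25% of genes, 0 with the Ca/Ca arrays alone, and from 1 (without the Ca/+ muscle) to 5 (without the Ca/Ca muscle) with 1 array left out. Over all genes 3256 passed, 601 with the Ca/Ca arrays alone, 1287 with the Ca/+ arrays alone, and from 1195 to 3451 with 1 array left out. Calls that were higher in sarcoma made up 49.9% of all, 38.7% under cyclic loess, 30.0% under housekeeping, 22.2% under ribosomal protein and 63.2% under hybridization control centring. Signs turned for Jun (0.0469), Junb (0.0449) and Ier2 (0.0859) under hybridization control centring, Ier2 with the Ca/Ca arrays alone (0.0752), Jun with the Ca/+ arrays alone (0.165) and Rps6ka3 with the mean of its probe sets (0.0303). With 1 array left out, Fosb ran from -2.78 to 0.0587 (without the Ca/+ muscle), Jun from -0.352 to 0.00236 (without Ca/Ca sarcoma 3) and Junb from -0.342 to 0.000304 (without Ca/+ sarcoma 1). Between genotypes 0 genes passed, 1 under hybridization control centring and from 0 to 1 with 1 array left out (1 without Ca/+ sarcoma 1). The sign of Klf4 turned there under hybridization control centring (-0.0516). With 1 array left out, Fosb ran from -0.450 to 0.0412 (above 0 without Ca/Ca sarcoma 2 or 3), Ier2 from -0.000927 (without Ca/+ sarcoma 1) to 0.597, and Egr1 from -0.130 (without Ca/+ sarcoma 2) to 0.908. The interaction passed in 1 gene, in 6 under hybridization control centring, 17 with trend and robust variances, 13 with array weights, 0 without the dimmest 25% or 50% of genes, and from 0 to 1 with 1 array left out. For Egr1 it ran from -0.0771 (without Ca/+ sarcoma 2) to 0.961. With tumour number as a replicate block, 0 genes passed between genotypes. That fit compares the genotypes only within numbers 1 and 2, since numbers 3 and 5 occur in 1 genotype alone, so this count says little. Same-numbered sarcomas had deviations correlated at -0.19 (number 1) and 0.29 (number 2) across genes. The deviations of the 2 Ca/+ sarcomas mirror each other, so each Ca/Ca sarcoma has equal and opposite correlations with them. Ca/Ca sarcoma 5, which shares no number, had 0.44 and -0.44 with Ca/+ sarcomas 1 and 2. These correlations therefore cannot show whether same-numbered tumours were paired. The cause of the changes between settings was not tested. Where 1 muscle was left out, the spread of the sarcomas stood for that of the muscle left. Fosb and Atf3 were not tested without the dimmest 50% of genes.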

Other observations

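The genes whose pattern over the 8 arrays was closest to that of a given gene were measured by the root mean square difference, in log2 units, after each gene was centred on its mean. For Fos they were Card10 (0.231), Phlda3 (0.256) and Prodh (0.300). For Nr4a1 they were Wnt4 (0.292), Abcb4 (0.299) and Wnk2 (0.315). For Atf3 they were Ebf3 (0.201), Rgs4 (0.311) and Gstk1 (0.319). For Fosb they were B3galt2 (0.429), Eppk1 (0.432) and Ppara (0.452), which all had their highest level in the Ca/+ muscle. Between members the distance was 0.547 for Fos and Atf3 and 0.291 for Junb and Ier2.

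The inducible HSP70 genes Hspa1a and Hspa1b, named after their values were seen, also had their highest level in Ca/Ca sarcoma 1, the tumour with the most Fos, Egr1 and Atf3. Hspa1a was 7.39 there and from 4.49 to 5.45 in the other sarcomas, with 5.21 and 6.09 in the muscles. Hspa1b was 9.49 there and from 6.81 to 8.18 in the other sarcomas, with 7.25 and 7.73 in the muscles. The copies are nearly identical in sequence, and whether their probe sets tell them apart was not tested. The rest of the heat shock list was mixed in this tumour. Of the 6 sarcomas, Dnajb1 was highest there (8.59, named after its value was seen), while Hspa8 was lowest there (12.48).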
